A study of Mus musculus with 4 samples.

Results

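The deposited table of normalized counts for mouse lung smooth muscle cells listed 21462 genes, and 1071 of them were noncoding genes of the biotypes antisense or bidirectional_promoter_lncRNA on chromosomes 1 to 19. They were 954 antisense genes and 117 genes of the bidirectional promoter class, chosen by the biotype column of the table, with Kcnq1ot1 and Airn left out and no expression value used. Each was paired with the nearest protein-coding gene on the opposite strand, its partner, by the coordinates in the table (mm10, GRCm38). RNA from 2 control and 2 Tet3 mutant samples of C57BL/6 mice was compared. The labels do not name the animals, and the study describes its sorted samples as independent animals. The question was whether inactivation of Tet3, a dioxygenase that oxidises 5-methylcytosine in DNA, changed these noncoding RNAs, alone or relative to their partners.

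In the Tet3 mutant mice a floxed Tet3 gene was inactivated with an inducible Cre driven by the α-SMA promoter (α-SMA ERT2Cre) after tamoxifen in adult animals. Control mice of the study had no floxed Tet3 but carried the Cre, the reporter, or both. The controls sampled here were sorted by the reporter, which takes both. The study does not say separately whether control mice received tamoxifen. Animals of both sexes were used, and the labels give neither sex nor age of a sample. In all groups cells were sorted by a tdTomato reporter at the ROSA26 locus after depletion of blood cells, so the fraction holds every cell type in which that Cre had been active and any cell that passed the sort. Tet3 itself had 1847 and 1926 normalized counts in the controls and 1534 and 1444 in the Tet3 mutants, so the groups did not overlap and the transcript was still counted in the mutants.

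Antisense genes are transcribed from the strand opposite to another gene, and they may overlap its start, its body or its end. At many CpG-rich promoters RNA polymerase II initiates in both directions, giving the coding mRNA on one side and a noncoding RNA, often short-lived and removed by the nuclear exosome, on the other. Some antisense RNAs host microRNAs and some have roles of their own, for example within the Hox clusters, where they lie between the genes that give cells their position along the body axis.

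The start sites of the 117 bidirectional promoter genes lay a median of 211 bases from those of their partners, against 13960 bases for the 954 antisense genes. Of all 1071 noncoding genes, 340 were head to head with the partner and overlapped it, 102 were head to head without overlap, 359 lay inside the partner, 37 contained the partner, 181 overlapped it tail to tail, 8 ended within 5000 bases of it and 44 were farther away. In 322 head-to-head pairs the start sites were at most 1000 bases apart. The exons of 750 of the 1071 shared bases with exons of the partner. Whether featureCounts used strand is not given in the sources used here. Where exons are shared, reads of a noncoding gene and of its partner can therefore be told apart only if strand was used, and reads assigned to several genes were left out. Of the 1071, 29 overlapped a protein-coding gene on their own strand, from which strand cannot separate them. The name noncoding follows the biotypes of the deposited table. GENCODE M21, used here for exon lengths, lists 25 of the 1071 as protein coding.

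A window of 300 bases holding both annotated start sites could be read for 91 of the 322 close head-to-head pairs from RefSeq promoters (250 bases before to 50 bases after a start site, GRCm38.p6). The 6 windows below belong to pairs described further on. They show how close the annotated start sites on both strands lie. Capitals mark the stretch from one start site to the other, both included. The windows are 5′ to 3′ on the strand of the named RefSeq gene, which is 4632427E13Rik for the first and the protein-coding partner for the others.
4632427E13Rik and Rab30: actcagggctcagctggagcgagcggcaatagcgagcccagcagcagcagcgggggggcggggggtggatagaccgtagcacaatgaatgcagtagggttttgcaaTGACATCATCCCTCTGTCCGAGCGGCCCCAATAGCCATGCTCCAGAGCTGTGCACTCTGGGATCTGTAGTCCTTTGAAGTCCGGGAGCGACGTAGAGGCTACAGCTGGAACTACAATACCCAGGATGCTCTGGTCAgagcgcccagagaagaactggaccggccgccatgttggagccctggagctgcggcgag
Cep83os and Cep83: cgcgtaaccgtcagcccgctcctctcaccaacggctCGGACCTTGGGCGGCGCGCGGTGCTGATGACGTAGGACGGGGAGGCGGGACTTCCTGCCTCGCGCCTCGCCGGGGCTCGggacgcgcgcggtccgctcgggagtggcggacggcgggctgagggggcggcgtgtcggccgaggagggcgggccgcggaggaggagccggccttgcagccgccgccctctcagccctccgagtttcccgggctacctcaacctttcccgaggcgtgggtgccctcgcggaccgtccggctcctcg
Tmem147os and Tmem147: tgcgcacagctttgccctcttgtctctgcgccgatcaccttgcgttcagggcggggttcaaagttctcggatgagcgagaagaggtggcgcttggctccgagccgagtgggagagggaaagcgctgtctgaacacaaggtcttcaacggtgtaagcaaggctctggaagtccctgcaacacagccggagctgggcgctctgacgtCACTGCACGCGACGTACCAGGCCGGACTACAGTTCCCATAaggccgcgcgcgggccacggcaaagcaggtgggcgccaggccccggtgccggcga
0610009L18Rik and Actg1: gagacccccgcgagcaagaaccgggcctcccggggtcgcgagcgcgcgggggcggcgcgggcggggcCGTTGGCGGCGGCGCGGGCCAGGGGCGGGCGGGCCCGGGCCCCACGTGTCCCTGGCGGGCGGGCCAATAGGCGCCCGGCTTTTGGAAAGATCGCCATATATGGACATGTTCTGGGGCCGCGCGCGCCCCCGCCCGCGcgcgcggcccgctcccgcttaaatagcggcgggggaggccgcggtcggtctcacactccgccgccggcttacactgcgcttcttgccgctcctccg
Gm10687 and Mcam: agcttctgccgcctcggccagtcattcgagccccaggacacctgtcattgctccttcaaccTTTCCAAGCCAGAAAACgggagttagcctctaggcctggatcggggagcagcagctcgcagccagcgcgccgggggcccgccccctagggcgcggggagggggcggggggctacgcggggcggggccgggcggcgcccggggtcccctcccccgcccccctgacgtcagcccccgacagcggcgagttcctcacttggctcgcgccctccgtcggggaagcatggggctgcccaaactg
4930423D22Rik and Map3k9: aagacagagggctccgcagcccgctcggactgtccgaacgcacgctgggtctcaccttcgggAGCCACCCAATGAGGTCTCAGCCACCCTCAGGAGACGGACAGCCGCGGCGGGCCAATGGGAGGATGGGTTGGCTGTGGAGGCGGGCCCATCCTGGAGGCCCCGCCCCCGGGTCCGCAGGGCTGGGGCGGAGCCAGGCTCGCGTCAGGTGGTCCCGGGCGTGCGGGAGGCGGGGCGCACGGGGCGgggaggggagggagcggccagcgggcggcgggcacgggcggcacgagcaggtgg

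The first window lay at chr7:92741410-92741709 (minus strand), with 136 bases in capitals between 4632427E13Rik and Rab30, a small GTPase of the Golgi. The Cep83 window, at chr10:94688540-94688839 (plus strand), held the 79 bases between Cep83os and Cep83, a centriole protein needed for cilium assembly. The Tmem147 window, at chr7:30729485-30729784 (minus strand), had the start sites of Tmem147os and Tmem147, a membrane protein of the endoplasmic reticulum, within 40 bases. The Actg1 window, at chr11:120348446-120348745 (minus strand), separated 0610009L18Rik from cytoplasmic gamma-actin by 137 bases. In the Mcam window, at chr9:44134408-44134707 (plus strand), the 17 capitals lie inside both annotated genes, since the start of Gm10687 in the table is downstream of that of Mcam, a surface molecule of vascular cells. The RefSeq start of Mcam that defines this window lies further downstream. The Map3k9 window, at chr12:81781121-81781420 (minus strand), held 184 bases between 4930423D22Rik and Map3k9, a kinase of the JNK pathway.

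These windows held 16 CpG (4632427E13Rik), 46 (Cep83), 28 (Tmem147), 50 (Actg1), 29 (Mcam) and 32 (Map3k9). The letters TATAAA were in none of the 6 on either strand, and GGGCGG, the letters of a GC box, were in all 6. Of the 91 windows that held both start sites, 3 held TATAAA and 74 held GGGCGG. Across 13337 genes of the table with a RefSeq promoter window of the same length, 8.46% held TATAAA and 58.9% held GGGCGG on one strand or the other. In the windows of 258 partners of close head-to-head genes these shares were 8.53% and 72.1%. In those of 152 close head-to-head noncoding genes they were 5.92% and 69.1%. The median window had 25 CpG in 258 partners of close head-to-head genes, 19 in 573 partners of the other noncoding genes and 19 in the 13337 windows. For the noncoding genes themselves the median was 26 CpG in 152 close head-to-head genes, 17 in 85 tail-to-tail genes and 5.5 in 136 genes inside their partner. The capitals of the Actg1 window contained CCATATATGG, a match to the CArG box, the sequence known to be bound by serum response factor at actin and smooth muscle genes. A CArG box was found in 1.30% of the 13337 windows, and in 5 of the 258 windows (1.94%) of partners of close head-to-head genes. Such matches describe letters only.

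Of the 1071 noncoding genes, 9 contained a RefSeq microRNA hairpin on their own strand, with 11 hairpins and 17 mature microRNAs of 17 different seeds. The hosts Dnm3os and Gm15884 are shown because their microRNAs are known from different tissue layers. Dnm3os (chr1:162217623-162225550, plus strand, inside Dnm3) gives rise to miR-199a and miR-214, known from mesenchymal cells. Gm15884 holds the hairpins of miR-141 and miR-200c, which are known from epithelial cells. The seed, bases 2 to 8, is in capitals.
mmu-miR-199a-5p: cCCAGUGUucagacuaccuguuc
mmu-miR-199a-3p: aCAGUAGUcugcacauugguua
mmu-miR-214-5p: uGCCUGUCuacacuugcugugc
mmu-miR-214-3p: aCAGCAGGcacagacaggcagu
mmu-miR-141-5p: cAUCUUCCagugcaguguugga
mmu-miR-141-3p: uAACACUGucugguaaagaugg
mmu-miR-200c-5p: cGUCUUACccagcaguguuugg
mmu-miR-200c-3p: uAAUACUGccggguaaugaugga

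Library preparation and counting measured long RNA, so that the values concern the host genes and not the mature microRNAs. Dnm3os had 355 and 159 normalized counts in the controls and 426 and 318 in the Tet3 mutants. Gm15884, whose values were seen before it was chosen, had 4 and 24 in the controls and 4 and 4 in the Tet3 mutants, below the level needed for a test. In both cases the second control stood apart, low for the mesenchymal host and high for the epithelial one.

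The libraries had totals between 6805272 and 7164573 normalized counts, and the spacing of the rounded values gave an estimate of 6320000 to 7560000 reads in genes each. Control replicate 2 differed from the other 3 libraries in ways the groups do not explain. It had 2 normalized counts of Xist where the others had at least 5214, and 774 of the Y-linked gene Ddx3y where the others had 0. By these sex-linked genes control replicate 2 was male and the other 3 libraries female. No Tet3 mutant library thus shared its sex, and sex cannot be told apart from its other traits. The 6 alveolar type 2 markers summed to 16170 in control replicate 2. In control 1, Tet3 mutant 1 and Tet3 mutant 2 they summed to 10640, 7500 and 9650. The 12 smooth muscle markers summed to 7658 and 9298 in the controls and 10920 and 10390 in the Tet3 mutants, and the 7 endothelial markers to between 13250 and 14580. RNA of other lung cells was thus present in every library, and in bulk RNA fewer cells of a type and less RNA per cell cannot be told apart.

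The noncoding genes were expressed at low levels. Together they had 19707 and 21957 normalized counts in the controls and 18481 and 17785 in the Tet3 mutants, which is 0.281% and 0.306% of the control totals and 0.268% and 0.261% of the Tet3 mutant totals. The groups did not overlap, but the gap between the lowest control and the highest Tet3 mutant was smaller than the distance between the 2 controls. Each of the 1071 had more than 3 counts in at least 1 library, and their median level was 6.5. Only genes whose average over the libraries reached 10 were tested, and 398 noncoding genes (37.2%) passed, 329 antisense and 69 bidirectional. Their levels ranged from 10 to 609 normalized counts. The 673 others were not tested. Of these 673, 74 had both Tet3 mutants above both controls (11%) and 104 had both below (15.5%), against 19.6% and 19.5% of all genes tested, whose levels are higher.

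Per kilobase of exon, the tested noncoding genes had a median of 13.8 normalized counts, against 54.0 for all genes tested. In the 377 tested pairs with known exon lengths, the noncoding gene was above its partner per kilobase in 28, and its median level was 14.1% of that of the partner. 4632427E13Rik and Rab30 were a pair in which the raw values were also in that order, with 542, 503, 456 and 315 normalized counts for the noncoding gene and 185, 87, 144 and 146 for Rab30 (controls first).

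**Figure D1:**
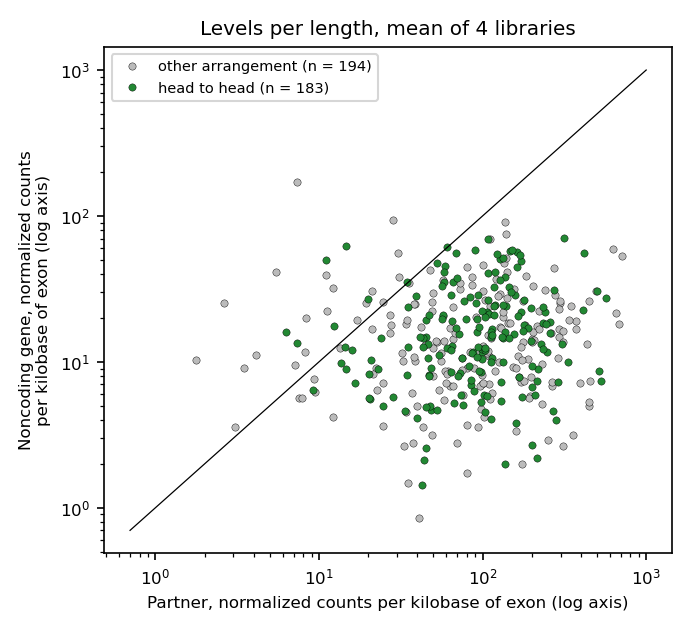
Mean level over the 4 libraries of each noncoding gene (vertical axis) against its partner (horizontal axis), both in normalized counts per kilobase of exon on log axes, for 377 pairs. Points above the line of equality, 28 of 377, are pairs in which the noncoding gene had the higher level, and head-to-head pairs lie among the others.

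No noncoding gene passed the test between the groups. With limma on log2(normalized count + 1) and Benjamini-Hochberg adjustment over the 16659 genes tested, the smallest adjusted p among the 398 noncoding genes was 0.681. Across all genes tested none was called either (0%). Without adjustment, 11 noncoding genes (2.76%) had p under 0.05, against 6.68% of all genes. They were 3 with higher values in the Tet3 mutants (0.754%, against 3.83% of all genes) and 8 with lower values (2.01%, against 2.85%). This count rose when control replicate 1 was left out and fell when either Tet3 mutant was left out. Such fits assume the lone sample to vary like the other group, and the share of all genes in them is not given here. With 2 samples a group, an exact permutation test of a single gene cannot give a p below 0.333.

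The direction of the small differences was uneven. The median log2 fold change of the 398 noncoding genes was -0.20, against -0.01 for all genes, and 132 of them (33.2%) had a fold change above 0, against 49.0% of all genes. Under equal library totals the medians were -0.15 and 0.04. Both Tet3 mutants were above both controls in 42 noncoding genes (10.6%) and below in 101 (25.4%), against 19.6% and 19.5% of all genes. The median was -0.19 for antisense and -0.23 for bidirectional promoter genes.

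Other noncoding biotypes lay on the same side. The median log2 fold change was -0.34 for 973 TEC genes (models awaiting experimental support), -0.39 for 148 sense intronic, -0.15 for 218 processed transcript and -0.08 for 308 lincRNA genes, and 0.01 for 14065 protein-coding genes. Among genes with a mean of 20 to 50 normalized counts, the 143 noncoding genes had a median of -0.26 and the 1225 protein-coding genes 0.22. The medians were -0.18 and 0.13 at 10 to 20 normalized counts and -0.08 and 0.10 at 50 to 100. At 100 or more the 30 noncoding genes had -0.14 and the 10674 protein-coding genes -0.0029. No test of the difference between biotypes was made, and genes of a library are not replicates.

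**Figure D2:**
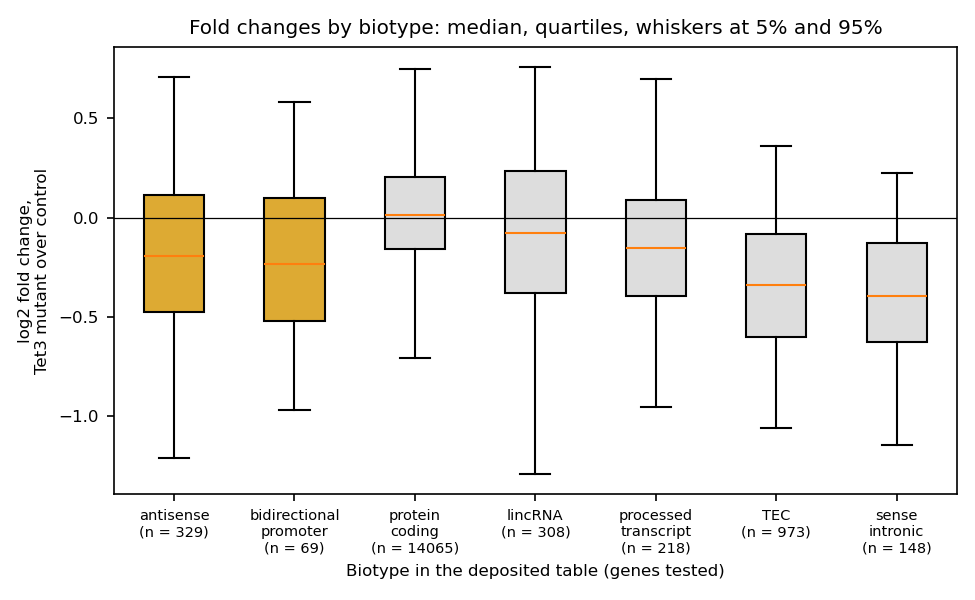
Distribution of the log2 fold change, Tet3 mutant over control, for the genes tested of each biotype in the deposited table. Boxes give the median and quartiles and whiskers the 5% and 95% points over genes. The medians of the antisense (-0.19) and bidirectional promoter genes (-0.23), in yellow, lie between those of protein-coding genes (0.01) and sense intronic genes (-0.39).

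The median of the noncoding genes depended in part on the second control. Leaving control replicate 2 out moved it to -0.11, and leaving each of the other libraries out gave values from -0.23 to -0.14. Of the 398, 212 kept the direction of their fold change whichever library was left out, 65 of them higher and 147 lower in the Tet3 mutants. The share of all genes that did so is not given here, so these counts have no baseline.

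By arrangement, the median log2 fold change was -0.24 in 138 overlapping head-to-head genes, -0.19 in 53 head-to-head genes without overlap, -0.18 in 81 tail-to-tail genes, -0.10 in 94 genes inside their partner and 0.06 in 18 genes that contained it. It was -0.56 in 13 genes more than 5000 bases from their partner, of which 3 had both Tet3 mutants above both controls and 8 had both below (against 19.6% and 19.5% of all genes). The remaining gene, within 5000 bases of its partner, had -0.47. Genes that shared exon bases with the partner (276) and genes that shared none (122) had medians of -0.18 and -0.21. The sign of the median was thus the same with and without shared exon bases.

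The 8 noncoding genes with the smallest p in each direction, among those averaging 20 or more with groups apart, are described next. In all of them the limma adjusted p was at least 0.681, so the values are descriptions. The most abundant of those with lower values in the Tet3 mutants was 9530026P05Rik (chr6:92940329-93272979, plus strand), antisense to Adamts9, a secreted metalloproteinase that cleaves proteoglycans. It had 443 and 453 normalized counts in the controls and 352 and 353 in the Tet3 mutants, with samples of a group nearly equal (log2 fold change -0.34 ± 0.12 SE). Adamts9 had 2277 and 992 in the controls and 1622 and 1623 in the Tet3 mutants, so its controls spanned the mutants.

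9330151L19Rik (chr12:69197211-69199867), head to head with Dnaaf2, which is needed to assemble the dynein arms of motile cilia, had 137 and 163 in the controls and 105 and 103 in the Tet3 mutants (-0.52 ± 0.20). Its partner went the other way, with 30 and 28 in the controls and 51 and 41 in the Tet3 mutants. The 6 ciliated cell markers also had both Tet3 mutants above both controls, each of the 6, with summed levels of 1872 and 2042 in the controls and 3465 and 2656 in the mutants. Their part in the Dnaaf2 values was not tested.

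Gm17690, tail to tail with Mtmr11, a member of the myotubularin family, had 92 and 115 in the controls and 70 and 53 in the Tet3 mutants (-0.75 ± 0.28). 6230400D17Rik, tail to tail with Sec24c, a coat protein of vesicles leaving the endoplasmic reticulum, had 53 and 60 against 32 and 33 (-0.78 ± 0.29). Both partners were nearly level, Mtmr11 between 244 and 256 and Sec24c between 1098 and 1201 in the 4 libraries. Gm15987, inside the barely counted Clec2g, had 43 and 42 in the controls and 25 and 21 in the Tet3 mutants (-0.86 ± 0.33).

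In the remaining genes with lower values the second control was well above the first, and without it the log2 fold changes given next were -0.52 for Junos, -0.57 for Panct2 and -0.66 for Gm10644. Junos (chr4:95051534-95167318), which starts 688 bases from Jun, the AP-1 transcription factor induced by stress and tissue dissociation, had 80 and 258 in the controls and 58 and 53 in the Tet3 mutants (-1.36 ± 0.57). Jun had 1697 and 2086 in the controls and 1865 and 1590 in the mutants, which overlap. Panct2, head to head with the organic anion transporter Slco4c1, had 50 and 125 in the controls and 35 and 32 in the mutants (-1.22 ± 0.49). Gm10644, tail to tail with the adhesion receptor Adgrl1, had 29 and 58 against 19 and 17 (-1.15 ± 0.46).

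Of the genes with higher values in the Tet3 mutants, D430036J16Rik, head to head with the serotonin receptor gene Htr1b, had 17 and 21 in the controls and 38 and 44 in the Tet3 mutants (1.07 ± 0.35). Htr1b had 27 and 19 in the controls and 61 and 32 in the mutants, in the same order. They share 852 exon bases, so without strand in the counting these values could not be told apart. Uckl1os (chr2:181578480-181585170), antisense to the uridine-cytidine kinase-like gene Uckl1, had 37 and 41 in the controls and 65 and 69 in the mutants (0.77 ± 0.28), while Uckl1 had 258 and 323 in the controls and 261 and 220 in the mutants.

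Brip1os, which contains Ints2, a subunit of the Integrator complex that ends short noncoding transcripts, was the most abundant of all the noncoding genes. It had 604 and 515 in the controls and 631 and 685 in the Tet3 mutants (0.24 ± 0.13, or 0.12 without control replicate 2). Cep83os, 78 bases from Cep83, had 77 and 60 in the controls and 106 and 95 in the mutants (0.56 ± 0.26). Cep83 had 463 and 413 in the controls and 535 and 491 in the mutants, so both sides of this promoter had higher values.

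Gm35853, which contains the keratin gene Krt80 and a hairpin of miR-1941, had 85 and 99 in the controls and 121 and 130 in the mutants (0.45 ± 0.21). 1500002C15Rik, tail to tail with the RNA polymerase II phosphatase gene Ssu72, had 34 and 28 against 53 and 46 (0.66 ± 0.32). 2410022M11Rik, head to head with Zmym5, had 25 and 36 against 47 and 43 (0.57 ± 0.35, or 0.31 without control replicate 1). Gm11837, tail to tail with the calcium-binding gene Necab1, had 24 and 13 against 33 and 32 (0.84 ± 0.44, or 0.42 without control replicate 2). In all 4 the groups did not overlap, as the choice required.

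**Figure D3:**
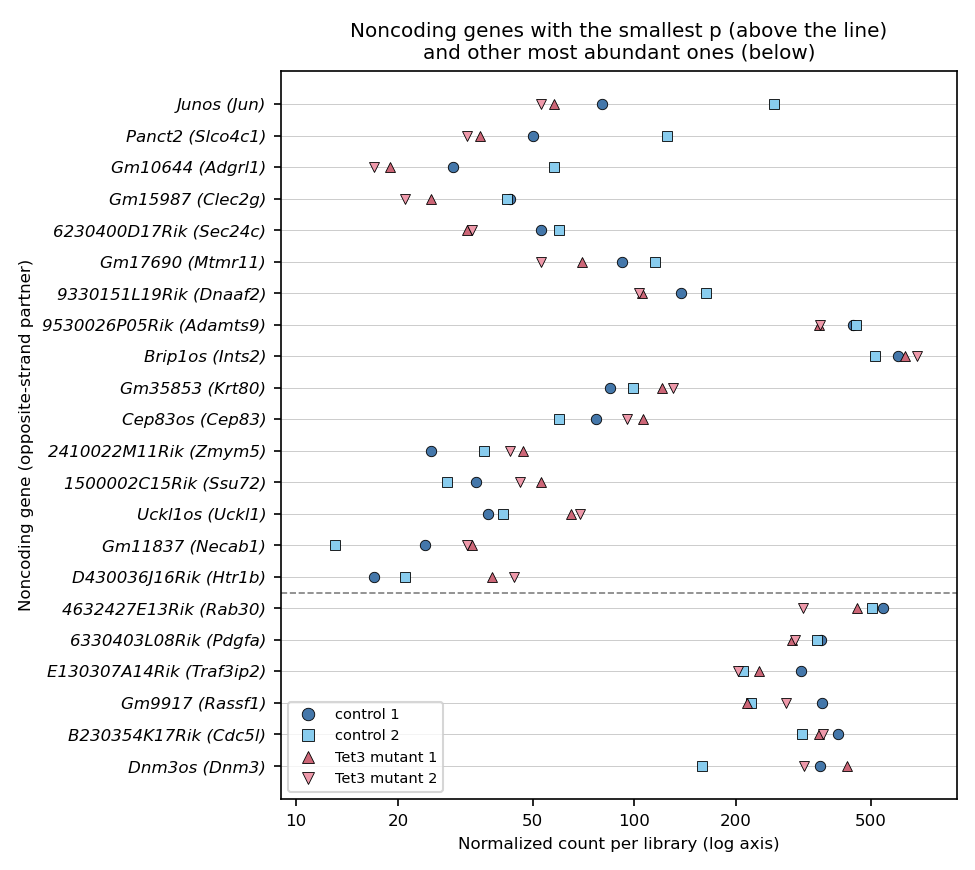
Normalized counts of single libraries on a log axis for the 16 noncoding genes with the smallest p (above the dashed line) and for the other 6 of the 8 most abundant (below), with the partner in parentheses. Circles and squares are controls 1 and 2, upward and downward triangles Tet3 mutants 1 and 2. For Junos the square lies at 258 against 53 to 80 in the other libraries, while 9530026P05Rik shows 443 and 453 against 352 and 353.

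Of the other most abundant noncoding genes, 2 had both Tet3 mutants below both controls. 4632427E13Rik, opposite Rab30, had 542 and 503 in the controls and 456 and 315 in the Tet3 mutants (-0.46 ± 0.21, or -0.73 and -0.20 with the first or the second Tet3 mutant left out), while the values of Rab30 overlapped between the groups. 6330403L08Rik, head to head with Pdgfa, a growth factor for mesenchymal cells, had 356 and 348 in the controls and 292 and 299 in the Tet3 mutants (-0.25 ± 0.13). In the remaining ones, as in Dnm3os, the groups overlapped. For B230354K17Rik, opposite the splicing factor gene Cdc5l, the values were 399 and 313 against 351 and 362, for Gm9917, opposite the tumour suppressor Rassf1, 358 and 221 against 215 and 281, and for E130307A14Rik, opposite Traf3ip2 of the IL-17 pathway, 311 and 210 against 233 and 202.

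Of the noncoding genes with a name of their own, 109 were in the table and 48 were tested. Of the 48, 18 (37.5%) had a log2 fold change above 0, against 49.0% of all genes. Both Tet3 mutants were above both controls in 6 (12.5%) and below in 10 (20.8%), against 19.6% and 19.5% of all genes. Tmem147os, whose promoter window is printed above, had 53 and 65 in the controls and 46 and 43 in the Tet3 mutants, and Tmem147 had 126 and 145 against 133 and 168. Gt(ROSA)26Sor, the noncoding gene at the locus that carries the reporter in these mice, had 42 and 45 in the controls and 47 and 36 in the Tet3 mutants. Mccc1os, antisense to a subunit gene of methylcrotonyl-CoA carboxylase, had 15 and 33 against 4 and 11 (-1.59 ± 0.68, or -1.05 without control replicate 2 and -0.96 without Tet3 mutant replicate 1), at levels where a few reads decide the ratio.

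Noncoding genes opposite transcription factors of mesenchymal and developmental identity numbered 20, and 11 were tested. Their median log2 fold change was 0.14, with 7 of 11 above 0, and none passed the limma test. Both Tet3 mutants were above both controls in 3 and below in 2 of the 11, where 19.6% and 19.5% of all genes were. Tbx3os1, opposite Tbx3, had 79 and 67 in the controls and 104 and 84 in the mutants (0.36 ± 0.26, or 0.20 without Tet3 mutant replicate 1). Zeb2os, opposite Zeb2, a repressor of epithelial genes, had 71 and 62 against 58 and 72. Hoxb3os had 33 and 52 against 27 and 33, and Hoxaas3 14 and 9 against 15 and 10. Gm10824, which contains Tcf21, a factor of lung mesenchyme, had 54 and 14 in the controls and 55 and 47 in the mutants (0.85 ± 0.67), and without control replicate 2 its log2 fold change was -0.085.

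Noncoding genes opposite smooth muscle and cytoskeleton genes numbered 7, of which 5 were tested, 1 of 5 with a fold change above 0, and their median was -0.12 on the log2 scale. E030013I19Rik, opposite Itga8, an integrin of contractile mesenchymal cells, had 130 and 100 in the controls and 110 and 122 in the Tet3 mutants. Gm48529, inside Tagln, which encodes the smooth muscle protein transgelin, had 71 and 55 against 46 and 61, while Tagln had 534 and 541 against 662 and 586. Gm10687, which shares its start with Mcam in the window printed above, had 31 and 39 against 31 and 28, and Mcam 1033 and 985 against 1377 and 1086. The 12 smooth muscle markers all had a fold change above 0, with a median of 0.49. The pair of noncoding genes opposite Mylk, the kinase that starts smooth muscle contraction, were E130310I04Rik, with 19 and 20 against 17 and 19, and Gm21691, with 19 and 13 against 13 and 16. Outside the list, and given for its printed promoter window, 0610009L18Rik had 37 and 52 against 25 and 29, and Actg1 330 and 487 against 439 and 312.

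Among the innate immune genes 4 were partners of a noncoding gene, and 1 of the 4 was tested. This was 4833438C02Rik, head to head with Nfkb2, a subunit of NF-κB, with 82 and 110 in the controls and 98 and 90 in the Tet3 mutants. Of the 515 genes that the study lists as spuriously transcribed, 31 were partners of a noncoding gene, and 12 of these noncoding genes were tested. Their median log2 fold change was -0.24, with 5 of 12 above 0. The study chose that list by the ratio of RNA reads between later and first exons, by start sites mapped with CAGE and by RNA polymerase II binding. The RNA reads are those of these samples, so the list is not independent evidence of a direction.

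A list of 28 genes was given for the enzymes that remove or restrain such RNAs. It held genes of the nuclear exosome, its adaptors and related complexes. It also held Tet3 itself and the histone methyltransferase gene Setd2, which are not RNA surveillance genes. Of the 26 tested, Tet3 and Setd2 among them, 11 had a fold change above 0, and the median was -0.05. Only 1 had an unadjusted p under 0.05 in the limma fit, lower in the Tet3 mutants. That gene was Tet3, the inactivated gene, and no RNA surveillance gene of the list had such a p. The exosome gene Exosc7, picked after its values were seen, stood apart in control replicate 2. It had 300 and 1316 in the controls and 310 and 291 in the Tet3 mutants.

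Noncoding gene and partner were then compared within each library, as log2 of the noncoding gene minus log2 of the partner. Of 378 pairs with both genes tested, which involved 365 different partners, none had an adjusted p under 0.05 in limma (0% of pairs), and the smallest was 0.594. Without adjustment, 25 pairs (6.61%) had p under 0.05. Leaving out control replicate 1 gave 17 pairs under 0.05, in a fit with a single residual degree of freedom, and leaving out control replicate 2 gave 1.

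The difference between noncoding gene and partner in the Tet3 mutants, relative to the controls, was largest in relation to its error for 9130015G15Rik inside Nav2, a gene of axon guidance and the cytoskeleton (1.17 ± 0.35 on the log2 scale). Here the partner moved, with 2276 and 3512 in the controls and 1481 and 1490 in the mutants for Nav2, and 28 and 33 against 29 and 45 for the noncoding gene. For Junos and Jun the difference was -1.23 ± 0.38 (limma adjusted p = 0.594, or 0.024 in the fit over pairs formed by start site distance, where the partner is the same), and for 9330151L19Rik and Dnaaf2 -1.16 ± 0.46. For Uckl1os and Uckl1 it was 1.03 ± 0.40 and for Gm10644 and Adgrl1 -1.06 ± 0.38, and in both the values of the partner overlapped between the groups. Without control replicate 2 the difference was -0.54 for Junos and Jun and -0.83 for Gm10644 and Adgrl1.

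The other 5 pairs with both means of at least 20 and the smallest p follow. AU040972, inside Nf1, a regulator of Ras, had 62 and 18 in the controls and 63 and 71 in the mutants, so the difference of 1.11 ± 0.44 came with a single low control. Gm20629, the noncoding gene nearest to Dgkq, had 10 and 66 against 3 and 8 (-1.96 ± 0.74). A730020E08Rik, head to head with Ccser1, had 15 and 16 against 39 and 17 (1.22 ± 0.53), and 4732471J01Rik, which contains Lipe, the hormone-sensitive lipase, had 52 and 76 against 29 and 46 (-1.01 ± 0.41). Prdm16os, 703 bases from Prdm16, a regulator of brown fat, had 29 and 81 against 46 and 53, and Prdm16 284 and 737 against 238 and 280 (0.85 ± 0.39).

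In 220 of the 378 pairs (58.2%) noncoding gene and partner had fold changes of the same sign. Both were higher in the Tet3 mutants in 64 pairs, both lower in 156, the noncoding gene lower and the partner higher in 95, and the reverse in 63. Across pairs Pearson's r between the fold changes was 0.41 and Spearman's rho 0.28, and all pairs share the same 4 libraries. Without control replicate 2 the values were 0.13 and 0.17. Among 267 pairs with shared exon bases r was 0.50 and 61.4% had the same sign, and among 111 pairs with none r was 0.27, rho 0.07 and 50.5% had the same sign.

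**Figure D4:**
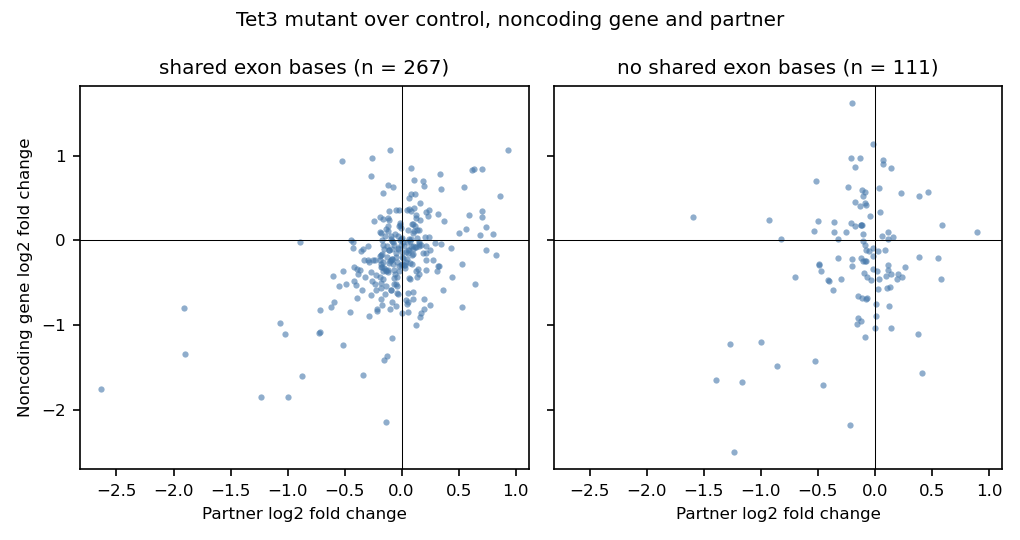
Log2 fold change, Tet3 mutant over control, of each noncoding gene (vertical axis) against that of its partner (horizontal axis), one point a pair, for 267 pairs with shared exon bases (left) and 111 without (right). Pearson's r was 0.50 on the left and 0.27 on the right, and in both panels most points lie near 0 on both axes.

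In control replicate 2, 34 of the 398 tested noncoding genes were more than 2 times as high as in every other library (8.54%), against 3.90% of all genes tested. In control replicate 1, Tet3 mutant 1 and Tet3 mutant 2 such noncoding genes numbered 2, 3 and 0, against 0.36%, 0.342% and 0.234% of all genes. The 33 of the 34 with a tested partner had a partner that was also highest in control replicate 2 in 24 cases (72.7%), and more than 2 times as high in 12. For the 345 other pairs the partner was highest there in 124 (35.9%). The cases are not all different partners. Among the 33, Dgkg (opposite 9230117E06Rik and Gm15651) and Atp11a (opposite Gm15350 and Gm15347) counted more than once. Of the 34, the genes outside the rule for names are given as values chosen after they were seen.

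The pairs that follow were picked after the values of the 34 were seen, and the partners of others, such as Mtus1, Cul5, Capn2 and Myo9a, were not highest in the second control. Gm26973 starts near Nkx2-1, the transcription factor of lung and thyroid epithelium, and had 12, 76, 8 and 10 normalized counts in control 1, control 2, Tet3 mutant 1 and Tet3 mutant 2. Nkx2-1 had 685, 1501, 378 and 540. Gm16136, opposite the epithelial transcription factor Grhl2, had 36, 89, 27 and 30, and Grhl2 224, 614, 170 and 184. Gm15396, tail to tail with Napsa, an aspartic protease of alveolar type 2 cells, had 12, 45, 4 and 12, and Napsa 736, 1289, 396 and 712.

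Irx3os, opposite the homeobox gene Irx3, had 26, 146, 13 and 21, and Irx3 427, 1060, 254 and 444. 9530036O11Rik, which overlaps Shh, the hedgehog ligand of airway epithelium, had 20, 92, 15 and 18, and Shh 33, 93, 10 and 20. 4930423D22Rik, on the other side of the Map3k9 promoter printed above, had 17, 60, 9 and 13, and Map3k9 193, 526, 169 and 182. In each of these pairs noncoding gene and partner were both highest in the second control.

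Gm9856 had 79, 390, 78 and 86, the highest value of the 34, with Tmem42 at 62, 178, 52 and 77. Other partners were not highest in the second control, as with Gm29724, which had 15, 54, 17 and 14 while Adamts8 had 1411, 932, 1372 and 1210. The alveolar type 2 markers, all 6 with a fold change below 0, were highest in the same library. Their part in the noncoding values was not tested. Without the 34 genes, the median log2 fold change of the remaining 364 was -0.13, and 36.0% of them were above 0.

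**Figure D5:**
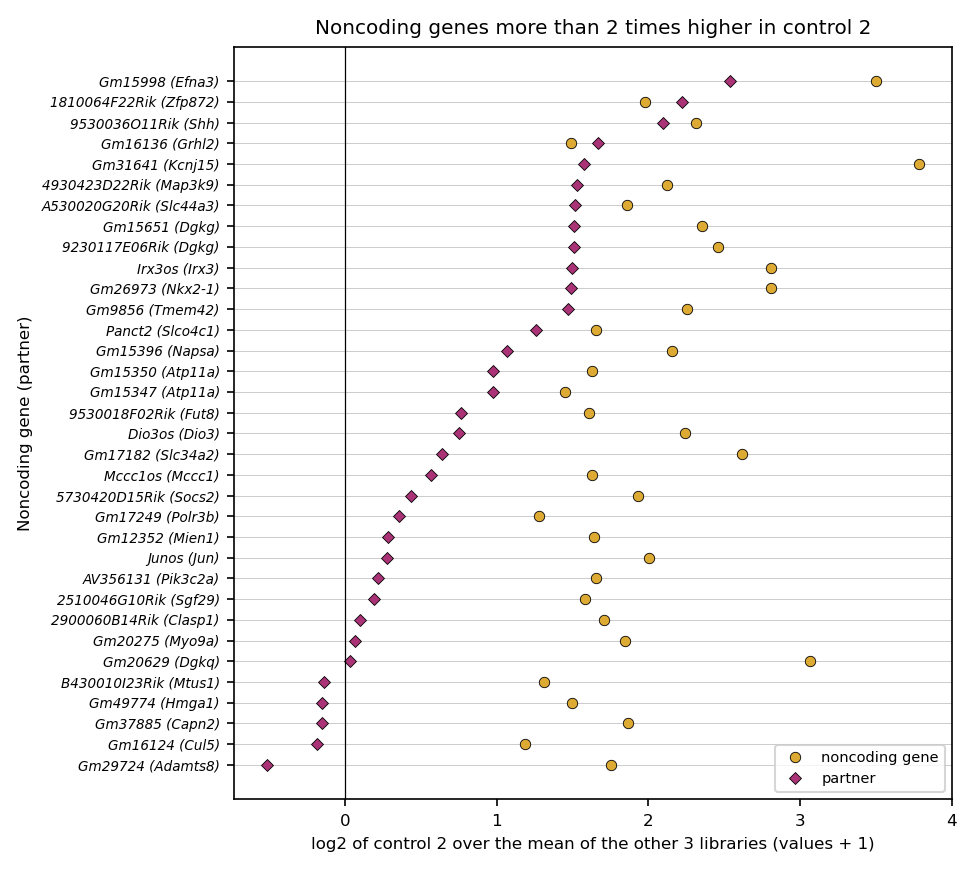
For the 34 noncoding genes more than 2 times as high in control replicate 2 as in every other library, log2 of control 2 over the mean of the other 3 libraries (values + 1), with the noncoding gene as a circle and its partner as a diamond. Noncoding genes were chosen on this ratio, so that only the diamonds carry information: most lie to the right of 0, from Efna3 at the top, and that of Adamts8 lies lowest.

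Opposite examples were fewer, as they were over all genes. In 5 of 398 tested noncoding genes, control replicate 2 was more than 2 times below every other library. Of all 16659 genes tested, 406 were that low in control replicate 2 and 650 that high. Such low noncoding genes numbered 2, 10 and 2 in control replicate 1, Tet3 mutant 1 and Tet3 mutant 2, against 81, 215 and 115 of all genes. The 5 were AU040972, Gm10824, Gm13883, Rptoros and Gm26542. AU040972 and Gm10824 had 18 and 14 in control replicate 2, against at least 62 and 47 elsewhere. Dnm3os was just short of this limit. The host of miR-199a and miR-214 had 159 in control replicate 2 and 318 to 426 in the others (log2 fold change 0.63 ± 0.41, or 0.05 without control replicate 2 and 1.21 without control replicate 1), and Dnm3 had 253, 330, 265 and 226.

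Around Tet3 on chromosome 6, 9 tested noncoding genes lay within 10 Mb, with 4 of 9 above 0 and a median log2 fold change of -0.21, and 9530026P05Rik, described above, was the 1 of 9 with an unadjusted p under 0.05 in the limma fit, as 6.68% of all genes had.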

How the data were processed

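RNA of sorted lung smooth muscle cells was depleted of ribosomal RNA and made into libraries with a stranded total RNA kit. Reads were trimmed (Trimmomatic 0.36), aligned to mm10 (STAR 2.6.0c) and counted over exons (featureCounts, Subread 1.6.0), per the labels and the methods of the study. Multi-mapped reads and reads assigned to several genes were excluded. The authors deposited one table of normalized counts, scaled with DESeq2 and rounded to whole numbers, whose unit is taken as a score and not as raw counts. Whether counting used strand is not given in the sources used here.

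Noncoding genes were taken by biotype, and the partner was the protein-coding opposite-strand gene of the table with the smallest gene-body distance. Members and gene lists were chosen with earlier results of these data known. Genes averaging at least 10 over the 4 libraries were tested with limma 3.58.1 (R 4.3.3, eBayes with a mean-variance trend) on log2(value + 1), adjusted over all 16659 genes at 0.05, and differences between noncoding gene and partner over 378 pairs. Fold changes are on the log2(value + 1) scale, which understates those of low genes. Exon lengths came from GENCODE M21. Sequencing depth was estimated from the steps that scaling leaves in rounded low values. On simulated libraries this recovered the factor within 0.0001, and the fits were tested on simulated data. The text names tested genes with a name of their own, the 8 in each direction with the smallest p (mean of at least 20, groups not overlapping), the 8 most abundant, the 5 pairs in each direction with the smallest p, and genes whose partner is in a list. The pseudocount, the filter, the scaling, the trend, a replicate block, the partner rule and leaving out each library were varied.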

Additional observations from a re-analysis of the deposited data

How the results depend on the processing

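No noncoding gene had a limma adjusted p under 0.05 under any alternative run. The count at an unadjusted limma p under 0.05 was 11 as reported and 31 of 1071 with no filter on the mean. It was 1 of 83 with a mean of at least 50, and 39 without the trend. Under equal library totals it was 7 (3 higher and 4 lower), against 796 higher and 355 lower of all genes in the same fit. With 1 library left out it moved in both directions. For the filter, trend and left-out-library runs the share of all genes is not given here. The median log2 fold change, -0.20, was -0.11 with a mean of at least 50 and ranged from -0.23 to -0.11 with 1 library left out. For pairs, the adjusted count of 0 was 1 with partners chosen by start site distance, and from 0 to 17 with 1 library left out. The unadjusted count, 25, was 65 with no filter, 8 with a mean of at least 50, and from 4 to 55 with 1 library left out. In such fits the lone sample was assumed to vary like the other group. The cause of these shifts was not tested beyond the smaller number of genes or samples.

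With a block for replicate number, 17 noncoding genes had an unadjusted p under 0.05 (3 higher and 14 lower, against 700 and 937 of all 16659 genes in the same fit), and the smallest adjusted p was 0.357. The numbers are not known to pair libraries. Deviations of equally numbered samples from their group means had a correlation of 0.13 over all genes and 0.11 over the noncoding genes.

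Of 25 noncoding genes followed with their fold changes, 24 kept their direction under every alternative run, but the size of 14 moved by over 1.5 times with some library left out, 11 of them in the fit that lacked control replicate 2 and 8 in the one that lacked control replicate 1. In the former Junos was -0.52, Irx3os -0.62, Panct2 -0.57, Gm26973 -0.39, 4930423D22Rik -0.61 and Dnm3os 0.05. Gm10824 was -0.085 without control replicate 2, and its values ranged from -0.085 to 1.79 with 1 library left out. Of 10 pairs, all kept the direction of their difference and 4 (9130015G15Rik, AU040972, Junos and Gm20629) passed the adjusted threshold without control replicate 1, and Junos also with partners by start site distance. Low counts limit these values: a gene at 10 normalized counts rests on about that many reads.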
